A study of Mus musculus with 2 samples.

Results

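The genes of the FGF, PDGF, VEGF, angiopoietin, HGF and EGF growth factor families were compared between the wall of the aortic arch, a region prone to atherosclerosis, and that of the central thoracic aorta, a resistant region. Members were all probes whose gene name on the array began with Fgf, Vegf or Angpt, named Pdgfa, Pdgfb, Pdgfc or Pdgfd, or was Pdgfrb, Kdr, Flt1, Flt4, Figf, Pgf, Hgf, Met, Hbegf, Egfr, Areg or Ereg. This rule used names only and no measured value. It gave 112 of 41174 probes, for 57 of 27392 genes or transcripts, with 1 probe for 24 of the genes and up to 6 for Egfr. Fgfr1op and Fgfr1op2, which the rule takes in, belong to proteins named for fusion partners of an FGF receptor and are not known as parts of FGF signalling.

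Both groups came from wild-type C57Bl/6 mice, 3 males and 3 females aged 16 weeks, whose aortas had been perfused with Triton X-100, a detergent, to strip the endothelium. The arch group was 1 RNA pool of 6 mice (the root and the arch with 2 mm of adjoining thoracic vessel), and the thoracic group was 1 pool of the 6 mm that follow. The 2 pools were hybridised to 2 Agilent arrays of 2 colours, with the dyes exchanged between them (on array 1 the arch carried Cy5). The labels name no treatment, diet or mutation in either group. With 1 pool per region there is no biological replicate, so no test was made, and the figure after ± is only the distance of either array from their mean. The labels describe the samples as smooth muscle cells, but the RNA came from whole pieces of stripped wall, and in such bulk RNA fewer cells of a type cannot be told apart from less RNA per cell.

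Growth factors of these families are secreted proteins that signal through receptor tyrosine kinases at the surface of a neighbouring cell. VEGF ligands act mainly on endothelium through Flt1, Kdr and Flt4, and PDGF ligands act on smooth muscle cells, pericytes and fibroblasts through Pdgfra and Pdgfrb. FGF ligands use the receptors Fgfr1 to Fgfr4 together with heparan sulphate, and angiopoietins bind Tek on endothelium. Angiopoietin-like proteins resemble angiopoietins in sequence but do not bind Tek, and several of them control lipid metabolism.

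A ratio is given as log2 of arch over thoracic aorta averaged over both arrays, and a gene is represented by its brightest probe that was well above background. A level is the normalised fluorescence of a pool in intensity units, which includes a constant of 50 units that draws the ratios of dim probes towards 0. The call rule was a difference of 1.5-fold or more on array 1 and on array 2, with 1 sign. Of the 57 genes 51 were measured, meaning that the scanner software marked a probe as well above background for 1 same region, or both, on each array, and 47 were so marked in both regions. Not measured were Fgf3, Fgf5, Fgf15, Fgf16, Fgf20 and Areg. On the arrays 71.3% to 81.5% of gene spots per pool were well above background, and no member probe was saturated. The 10 smooth muscle markers listed for comparison were all measured in both regions.

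Most growth factor transcripts differed by less than 1.5-fold between the regions, with Angptl1 as the exception. Angptl1, a secreted angiopoietin-like protein, was 2.05-fold lower in the arch pool. It was the only member called, so 1 of 51 members was lower, where 0.229% of all 21368 measured genes were, and 0 of 51 were higher, where 0.257% of all were (0.487% in either direction). With no added constant (offset 0) Angptl1 was again the only call, at -1.49, where 0.487% of all genes were lower, 0.548% higher and 1.03% either. Ratios lay within 0.2 of 0 for 44 of 51 members. The 7 beyond it (13.7%, against 6.87% of all genes) were Angptl1, Figf and Fgfr1op below 0 and Angptl7, Angptl4, Vegfb and Fgfr1 above 0. This count depends on the added constant. Without it (offset 0), 18 of 51 members lay beyond 0.2 (35.3%, against 16% of all genes), with the scanner software's ratios 20 of 51 (39.2%, against 19.6%), and with median centring 14 of 51 (27.5%, against 14.7%). The median over the members was 0.04, beside 0.00 over all measured genes, and 32 of 51 members were above 0 (62.7%, against 51.5% of all genes). With median centring in place of loess 22 of 51 were above 0 and their median was -0.02, beside -0.04 over all genes. The ratio had the same sign on each array for 40 of 51 members (78.4%, against 54.9% of all genes). A 1.3-fold rule called Angptl1 and Figf lower (0.524% of all genes) and Angptl7 higher (0.627%), and a 2-fold rule called 0 members lower (0.0702%). On array 1 alone Angptl1 and Fgfr1op were lower by 1.5-fold or more (0.29% of all genes), and on array 2 alone Angptl1 (0.314%).

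**Figure D1:**
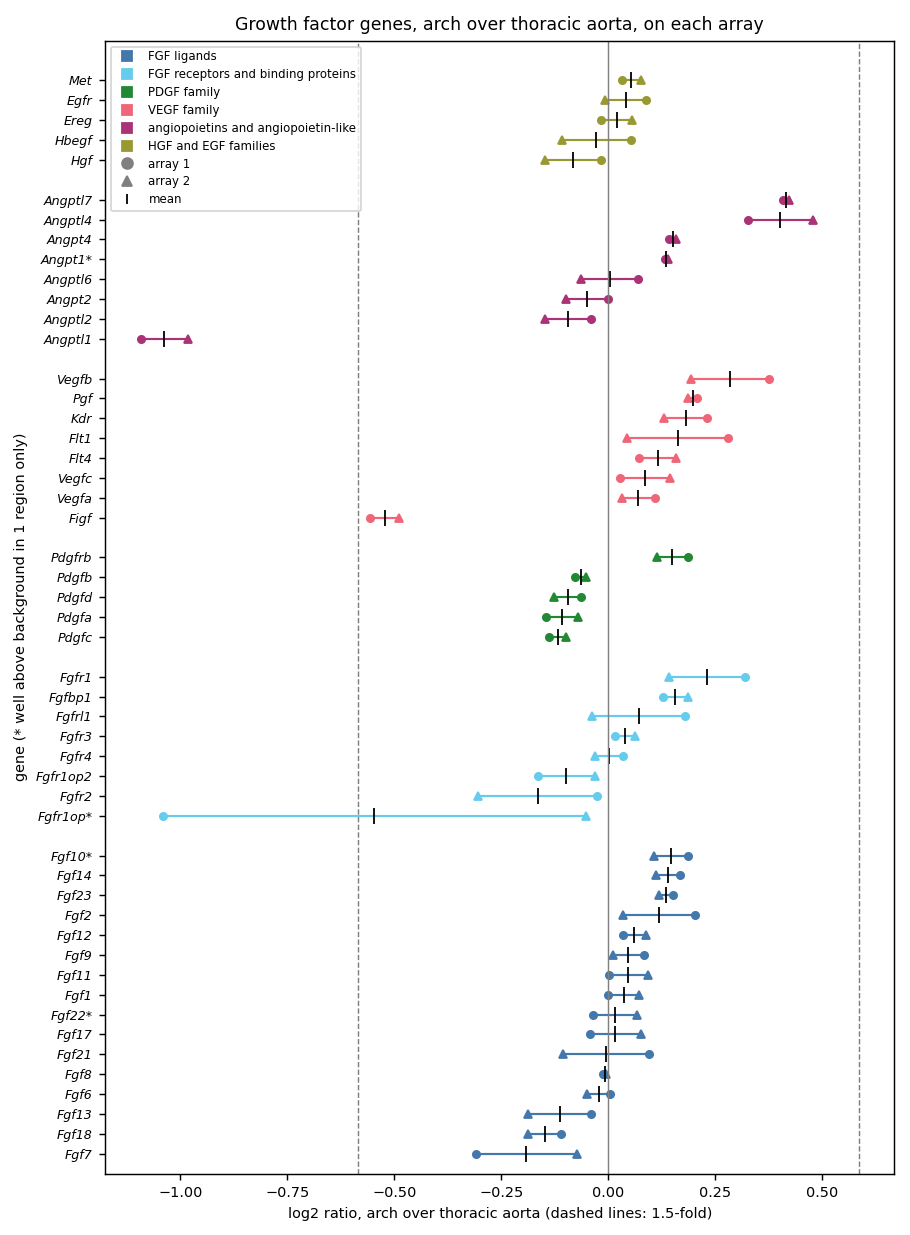
Log2 ratio of arch over thoracic aorta (x axis) for the measured members named here (y axis), coloured by family, with circles for array 1, triangles for array 2 and a bar at their mean; dashed lines mark 1.5-fold and an asterisk marks a gene well above background in 1 region only. Angptl1 alone lies past 1.5-fold on each array, and Fgfr1op differs between the arrays more than any other member.

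The levels of the pools did not overlap over the 2 arrays for 14 members that were higher in the arch (27.5%) and 12 that were lower (23.5%). Over all measured genes these shares were 14.9% and 15.2%, or 30.2% together. Angpt1 and Fgf10 among the higher, and Fgfr1op among the lower, passed the background mark on both arrays only in the region where they were higher. Of the 26 members Angptl1, Fgfr1op and Figf differed most, and Fgfr1op only on array 1. The others were no further from 0 than Angptl7 at 0.42, and Fgf8, at -0.01, was the nearest.

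Among the angiopoietin-like genes Angptl1 measured 121 and 122 units in the arch pool on arrays 1 and 2 and 258 and 242 units in the thoracic pool. Both thoracic values lay well above both arch values, and the ratio was -1.04 ± 0.05. A second, dimmer Angptl1 probe was also lower in the arch, but measured -0.16 ± 0.07, so that the probes agree in direction and not in size. With the ratios of the scanner software, which carry no added constant, the bright probe measured -1.59 ± 0.12 and the dim one -0.57 ± 0.16. As the mean of both probes the gene was at -0.60 and still called.

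For reference, promoters are shown for the 2 lowest members and the highest among those well above background in both regions, Angptl1, Figf and Angptl7. They are the 250 bases before the annotated start site, in build GRCm38.p6 (the array files name no build), printed 5′ to 3′ on the strand of the gene. The window of Angptl1 is chr1:156838773-156839022 on the plus strand. For Vegfd, the current symbol of Figf, it is chrX:164373272-164373521 on the plus strand, and for Angptl7 chr4:148500463-148500712 on the minus strand. Capitals mark exact matches, on either strand, to TATAAA (the TATA box), ACGTG (the core of the hypoxia-response element), TGACGT (the cyclic AMP response element, in its short form) or GGGCGG (the GC box). The TATA box and the other motifs were counted separately, and no overlap between them was removed.
Angptl1: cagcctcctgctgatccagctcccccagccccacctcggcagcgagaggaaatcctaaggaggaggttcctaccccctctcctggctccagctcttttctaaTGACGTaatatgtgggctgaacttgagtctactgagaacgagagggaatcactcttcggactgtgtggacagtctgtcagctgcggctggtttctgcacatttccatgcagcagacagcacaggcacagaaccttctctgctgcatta
Vegfd: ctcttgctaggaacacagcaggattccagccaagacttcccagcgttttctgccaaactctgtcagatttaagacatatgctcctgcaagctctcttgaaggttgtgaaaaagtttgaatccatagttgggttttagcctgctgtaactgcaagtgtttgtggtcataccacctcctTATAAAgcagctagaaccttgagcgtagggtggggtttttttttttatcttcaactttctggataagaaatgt
Angptl7: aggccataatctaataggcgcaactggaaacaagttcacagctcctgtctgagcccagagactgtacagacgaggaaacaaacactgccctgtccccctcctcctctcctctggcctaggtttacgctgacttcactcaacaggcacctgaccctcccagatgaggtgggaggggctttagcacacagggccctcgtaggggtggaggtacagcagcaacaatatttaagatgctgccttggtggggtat

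The Angptl1 window holds 1 TGACGT, which begins 148 bases before the start, and the Vegfd window 1 TATAAA, which begins 73 bases before it. The Angptl7 window holds none of these motifs. The cyclic AMP motif occurs in 6.47% of the 32851 promoter windows of the table, the TATA box in 12.4%, the hypoxia core in 16.6% and the GC box in 32.7%. Of the 57 members 42 had a window, 54 windows in all, and 64.8% of these held the GC box, while each of the other 3 motifs was in 11.1%. Member windows also had more G and C, with a median of 62%, than all windows, at 52.4%. These matches describe letters in the sequence and no binding of a factor.

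Angptl7, an angiopoietin-like protein known from the eye, was the highest member, though not with the scanner software's ratios. It measured 215 and 229 units in the arch pool and 162 and 171 in the thoracic pool, without overlap, for a ratio of 0.42 ± 0.01. Angptl4, an inhibitor of lipoprotein lipase made in fat and other tissues in fasting, measured 1648 and 1606 units in the arch and 1314 and 1153 in the thoracic pool. Its levels did not overlap either, and the ratio was 0.40 ± 0.08, or 1.32-fold. With the scanner software's ratios Angptl7 measured 0.57 ± 0.02 and Angptl4 0.42 ± 0.07, so neither met the 1.5-fold rule. There the dim Fgf10 (0.69) and Fgfbp1 (0.63) were above Angptl7. The other members of this group lay within 0.1 of 0. Angptl2 measured 75.7 and 68.7 units in the arch and 77.9 and 76.2 in the thoracic pool, close together but without overlap, for -0.10 ± 0.05. It was at -0.32 with an offset of 0 and at -0.38 ± 0.09 with the scanner software's ratios. Angptl6 measured 0.00 ± 0.07.

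Fat-cell transcripts moved the same way as Angptl4. Of 10 adipocyte markers 9 were above 0 and 3 were called higher, and their summed level was 41970 to 43623 units in the arch pool and 32586 to 33373 in the thoracic pool. Of 9 brown adipocyte markers 7 were above 0 and 4 were called, with sums of 10871 to 11355 and 6998 to 7170 units. The markers below 0 were Retn (-0.25 ± 0.03) in the first list, and Prdm16 (-0.19 ± 0.06) and Elovl3 (-0.10 ± 0.02) in the second. No marker of either list was below background in both regions. Lep, a defining hormone of white fat, measured 0.03, but was dim at 69.3 to 76.4 units, so the constant limits its ratio. With the scanner software's ratios it was at 0.20 ± 0.04. The part of fat cells in the Angptl4, Angptl7 and Vegfb ratios was not tested. Mesothelium and epithelium markers were above 0 in 8 of 8 measured genes (sums of 2097 to 2225 and 1577 to 1615 units, with Cdh1 and Epcam well above background in neither region). Cardiomyocyte markers were above 0 in 8 of 9, with 3 called higher (14928 to 15083 and 13669 to 15507 units, Myh6 in neither region). Actc1 made up most of these sums, at 13035 and 12803 against 12551 and 14336 units (-0.05 ± 0.11). The 3 called were Myl7, Tnnt2 and Sln, higher by 5.04-fold, 3.02-fold and 1.83-fold. Nerve markers were above 0 in 7 of 8, adventitial fibroblast markers in 5 of 10 and macrophage markers in 0 of 10. The macrophage sums were 25385 to 26978 units in the arch and 31603 to 32304 in the thoracic pool, with 0 called. The part of these cells in the member ratios was not tested.

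**Figure D2:**
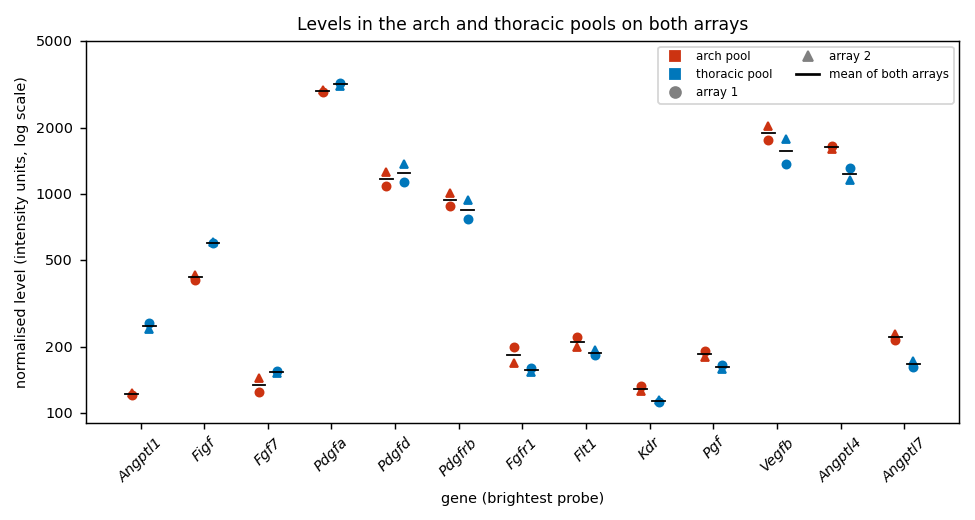
Normalised level in intensity units (log scale, y axis) of selected members in the arch pool (red) and the thoracic pool (blue), with circles for array 1, triangles for array 2 and bars at the mean of both arrays. Angptl1 and Figf lie clearly lower in the arch, Angptl4 and Angptl7 higher, and the pools overlap for Pdgfd, Pdgfrb and Vegfb.

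None of the angiopoietins themselves was called, and the ratios of Angpt1 and Angpt4 depend on the added constant. Angpt2, which can oppose Angpt1 at the Tek receptor, measured 1240 and 1159 units in the arch and 1242 and 1240 in the thoracic pool, which overlap, for a ratio of -0.05 ± 0.05. Angpt4 measured 0.15 ± 0.01, with levels of 113 and 130 units in the arch and 102 and 116 in the thoracic pool. Within each array the arch was the higher, while over both arrays the levels overlap. The scanner software's ratio was 0.32 ± 0.04. Angpt1, the agonist of Tek, passed the background mark on both arrays in the arch alone, where it was 1.099-fold higher. Its ratio was 0.14 ± 0.00, but 0.55 ± 0.10 with an offset of 0 and 0.51 ± 0.18 with the scanner software's ratios. Another Angpt1 probe, well above background in neither region, gave 0.02 ± 0.05. Tek itself measured -0.04 ± 0.04 at its brightest probe and 0.18 at its other kept probe, so its probes disagree in sign. Tie1, its relative, was not well above background in either region.

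In the VEGF family Figf, the gene of VEGF-D, a ligand for lymphatic and other endothelium, was the one member below 0. It measured 404 and 427 units in the arch pool and 594 and 599 in the thoracic pool. All arch values lay below all thoracic values, and the ratio was -0.52 ± 0.03, which is 1.44-fold lower in the arch and short of the 1.5-fold rule. The rule was met with median centring, at -0.68, where 0.351% of all genes were called lower (0.482% in either direction), and not with the scanner software's ratios, at -0.59 ± 0.03. Figf has a single probe. Markers of lymphatic endothelium were above 0 in 1 of 5 measured genes, with Lyve1 at -0.33 ± 0.00 and Prox1 at -0.03 ± 0.11. Their summed level was 826 to 839 units in the arch and 940 to 980 in the thoracic pool. Lyve1 made up most of this sum, with 467 and 443 units in the arch and 587 and 560 in the thoracic pool. Its second probe gave -0.09, and the other measured markers lay between -0.09 and 0.07. All 5 markers were well above background in both regions, and their part in the Figf ratio was not tested.

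The other 7 VEGF family genes were above 0 on both arrays. With median centring Vegfc turned to -0.02 as the mean of both arrays. Under that setting array 2 was also below 0 for Vegfa (-0.01), Vegfb (-0.08) and Flt1 (-0.08). Among the ligands Vegfb, which acts through Flt1, measured 1769 and 2043 units in the arch and 1364 and 1786 in the thoracic pool. The pools overlap over both arrays, and the arch was the higher within each array, at 0.28 ± 0.09. Its second probe measured 0.08 ± 0.09, and median centring gave 0.11. Pgf, placental growth factor, another ligand of Flt1, measured 191 and 179 units in the arch and 166 and 158 in the thoracic pool, without overlap, for 0.20 ± 0.01. Vegfa, the main growth factor of blood vessel endothelium, measured 0.07 ± 0.04, with 130 and 115 units in the arch and 121 and 113 in the thoracic pool, which overlap. Its 3 probes lay between 0.03 and 0.10. Vegfc, a lymphatic growth factor, measured 221 and 214 units against 217 and 194, which overlap, for 0.09 ± 0.06.

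The 3 VEGF receptors were slightly higher in the arch on both arrays, though with median centring Flt1 was at -0.08 on array 2. Kdr, the main signalling receptor for VEGF-A, measured 132 and 125 units in the arch and 112 and 114 in the thoracic pool. These do not overlap, and the ratio was 0.18 ± 0.05. Flt1, which also serves as a decoy, measured 222 and 199 units against 183 and 193, for 0.16 ± 0.12, and its other 3 probes lay between 0.01 and 0.06. Flt4, the receptor of lymphatic endothelium, measured 124.5 and 124.8 units against 118 and 112, for 0.12 ± 0.04. The co-receptors Nrp1 and Nrp2 measured 0.08 ± 0.06 and 0.23 ± 0.04 at their brightest probes. The other kept Nrp2 probe was at 0.02, and the 3 kept Nrp1 probes lay between -0.01 and 0.09.

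Probes of endothelial markers still gave signal after the detergent, some of it dim. With the added constant of 50 units included, Pecam1 and Cdh5 lay at 67 to 76 units and Erg at 367 to 430. Passing the background mark was common, at 71.3% to 81.5% of all gene spots per pool. How much endothelium was left was not tested. Of 18 endothelial markers 17 were measured and 16 were well above background in both regions. Their levels were similar in the pools, with 12 of 17 above 0 and 0 called, a median of 0.06 and sums of 2142 to 2192 units in the arch and 2052 to 2100 in the thoracic pool. Mmrn2 was the highest at 0.34 ± 0.03 and Esam the lowest at -0.16 ± 0.02, while Cdh5 and Pecam1 measured -0.05 ± 0.02 and -0.02 ± 0.05. Their part in the VEGF receptor ratios was not tested.

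**Figure D3:**
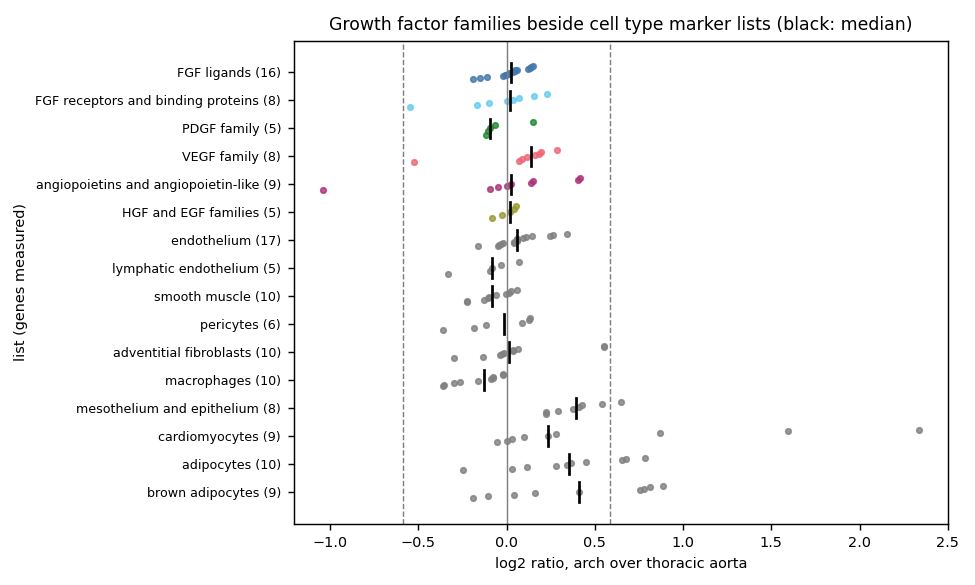
Log2 ratio of arch over thoracic aorta (x axis) of every measured gene in the 6 growth factor families (coloured) and 10 marker lists (grey), with the number of genes in brackets and a black bar at each median. The VEGF family has a median of 0.14 and the PDGF family of -0.09, while the adipocyte lists lie at 0.35 and 0.41 and the endothelial list at 0.06.

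In the PDGF family all 4 ligands were slightly lower in the arch on both arrays at their brightest probe, and the receptor Pdgfrb was slightly higher. The second probes of Pdgfa, Pdgfb and Pdgfd were above 0 on 1 array, at 0.04, 0.07 and 0.01. Pdgfa, a ligand of Pdgfra, measured 2914 and 2964 units in the arch and 3220 and 3112 in the thoracic pool. These do not overlap, and the ratio was -0.11 ± 0.04, with -0.08 ± 0.12 at a second probe. Pdgfb, made by endothelium and a ligand of Pdgfrb, measured 98.5 and 91.7 units against 104 and 95.0, which overlap, for -0.06 ± 0.01. Its second probe gave -0.01 ± 0.08. Pdgfc, a ligand of Pdgfra, measured 175 and 164 units against 192 and 175, for -0.12 ± 0.02, with -0.25 ± 0.16 at a second probe. Pdgfd, a ligand of Pdgfrb, measured 1086 and 1253 units against 1135 and 1367, which overlap, for -0.09 ± 0.03. A second Pdgfd probe gave -0.04 ± 0.05.

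At the brightest probes none of the 4 ligand ratios reached 0.15 in size, and they were -0.08 to -0.28 with median centring. Pdgfrb, the receptor of smooth muscle and pericytes, measured 874 and 1009 units in the arch and 768 and 933 in the thoracic pool, for 0.15 ± 0.04. Its ratio was -0.02 with median centring, so its sign depends on the normalisation. The smooth muscle markers had a median of -0.08 and the pericyte markers of -0.01. With median centring these medians were also lower, at -0.21 and -0.17.

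FGF ligands differed little between the regions with the added constant. Of 21 genes 16 were measured, 14 of them in both regions, and their ratios ran from -0.19 to 0.15 with 10 above 0 and a median of 0.03. Fgf1, Fgf6, Fgf10, Fgf12, Fgf17, Fgf21 and Fgf22 were dim, at 65 to 104 units, so the constant limits their ratios. With the scanner software's ratios the family ran from -0.34 for Fgf7 to 0.69 for Fgf10, with a median of 0.09. Fgf7, a fibroblast product that acts on epithelium, was the lowest at -0.19 ± 0.12, with 125 and 144 units in the arch and 154 and 151 in the thoracic pool. Fgf18, known from cartilage and bone, was next at -0.15 ± 0.04, with 186 and 176 units against 201 and 200. Both have arch values below all thoracic values, and Fgf7 rests mainly on array 1. Fgf2, a mitogen of smooth muscle and endothelium, measured 0.12 ± 0.08, with 220 and 207 units in the arch and 191 and 202 in the thoracic pool. Fgf1, a ligand of all 4 receptors, measured 0.04 ± 0.04.

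Fgf10, which directs the growth of epithelium and fat, and Fgf22 passed the background mark on both arrays in the arch alone. Fgf10 was 1.11-fold higher in the arch, at 0.15 ± 0.04. Fgf22 measured 72.7 and 67.9 units in the arch and 74.5 and 64.8 in the thoracic pool, which overlap and differ in sign between the arrays. With the scanner software's ratios Fgf10 measured 0.69 ± 0.15, which missed the 1.5-fold rule on array 2, at 0.53. The intracellular FGFs, Fgf11 to Fgf14, are not secreted and bind voltage-gated sodium channels. They measured from -0.11 ± 0.07 for Fgf13 to 0.14 ± 0.03 for Fgf14, and Fgf14 had 209.5 and 224 units in the arch and 186 and 207 in the thoracic pool. The other 2 kept Fgf13 probes were at 0.07 and 0.03. Of the endocrine FGFs, which act at a distance with Kl or Klb, Fgf23, a bone hormone of phosphate balance, measured 181 and 157 units in the arch and 163 and 144 in the thoracic pool. These overlap over both arrays, and the ratio was 0.13 ± 0.02. Fgf21, a metabolic hormone, measured -0.01 ± 0.10. The co-receptors Kl and Klb measured 0.05 ± 0.07 and -0.01 ± 0.05. Fgf6, Fgf8, Fgf9 and Fgf17, further paracrine ligands, lay between -0.02 and 0.05.

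Among the FGF receptors Fgfr1 was the highest member at its brightest probe. There it measured 199 and 168 units in the arch and 159 and 153 in the thoracic pool, without overlap, for 0.23 ± 0.09. The other 3 Fgfr1 probes gave -0.12 ± 0.24, 0.05 ± 0.07 and -0.04 ± 0.20, so the probes disagree in sign and the mean over them was 0.03. Fgfr2, the main receptor of Fgf7 and Fgf10, measured -0.17 ± 0.14, with 125 units on both arrays in the arch and 127 and 154 in the thoracic pool. Another Fgfr2 probe gave 0.05 ± 0.03. The remaining receptors had overlapping pools. Fgfr3 measured 89.0 and 94.4 units in the arch and 88.0 and 90.4 in the thoracic pool, for 0.04 ± 0.02. Fgfr4 measured 434 and 392 units against 424 and 401, for 0.00 ± 0.03. Fgfrl1, a receptor without a kinase domain, measured 169 and 177 units against 149 and 181, for 0.07 ± 0.11.

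Fgfbp1, which frees FGFs from the matrix, measured 83.7 and 83.4 units in the arch and 76.7 and 73.2 in the thoracic pool, without overlap. Its ratio was 0.16 ± 0.03, and 0.63 ± 0.20 with the scanner software's ratios, where array 1, at 0.42, missed the 1.5-fold rule. The Fgfr1op probe stood apart between arrays. It measured 104 and 105 units in the arch and 215 and 109 in the thoracic pool, so that array 1 alone gave -1.04 and array 2 -0.05. It passed the background mark on both arrays only in the thoracic pool, and its other probe measured -0.03 ± 0.01. Fgfr1op2 measured 199.8 and 214 units in the arch and 224 and 219 in the thoracic pool, without overlap, for -0.10 ± 0.07.

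**Figure D4:**
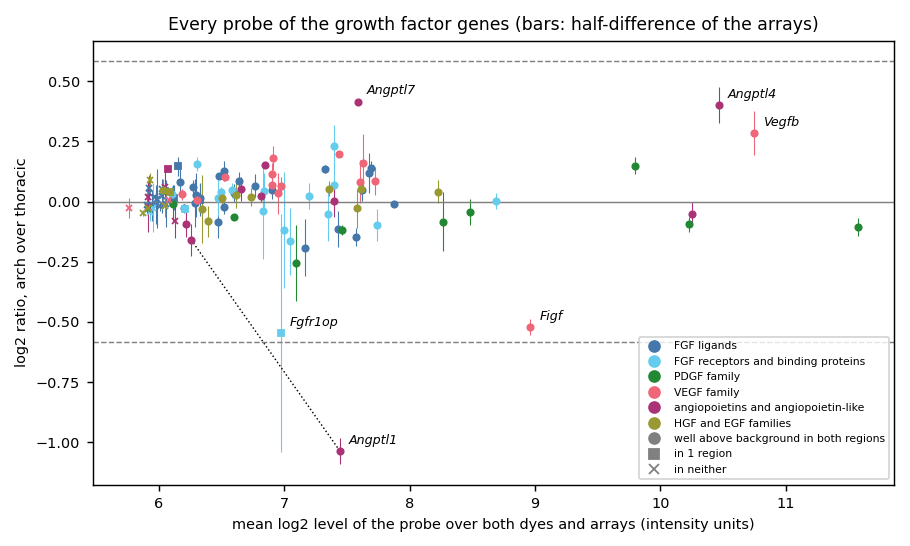
Log2 ratio (y axis) against mean log2 level (x axis) for all 112 member probes, coloured by family, with bars from one array's value to the other's and symbols for the regions in which the probe was well above background; a dotted line joins the 2 Angptl1 probes. The probes of Angptl1 measured -1.04 and -0.16, and Fgfr1op has by far the longest bar.

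In 26 genes with several kept probes the probes differed by more than 0.3 in 3, Angptl1, Fgfr1op and Fgfr1. Elsewhere the spread was at most 0.21, for Fgfr2.

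In the HGF and EGF families all 5 measured genes lay within 0.1 of 0 with the added constant and had overlapping pools. Hgf, a mesenchymal factor that acts on epithelium and endothelium, measured 77.6 and 85.1 units in the arch and 78.5 and 94.2 in the thoracic pool, for -0.08 ± 0.07. It was at -0.20 with an offset of 0 and at -0.27 ± 0.07 with the scanner software's ratios. The other kept Hgf probe gave 0.05 ± 0.04, and 0.35 ± 0.24 with the scanner software's ratios. Met, the receptor of Hgf, had 206 and 194 units against 202 and 184, for 0.05 ± 0.02. Hbegf, a mitogen of smooth muscle, measured -0.03 ± 0.08, with 199 and 182 units in the arch and 191 and 196 in the thoracic pool. Ereg, another ligand of Egfr, measured 0.02 ± 0.04. Egfr itself measured 291 and 314 units in the arch and 273 and 316 in the thoracic pool, for 0.04 ± 0.05, and its 5 kept probes lay between -0.03 and 0.05.

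Genes of the same pathways outside the rule were given by a list. Of its 30 measured ligands, receptors and co-receptors 1 was called higher, Flrt3, a membrane protein that binds FGF receptors and guidance receptors, and 0 were called lower. Flrt3 measured 154 and 168 units in the arch and 78.5 and 76.9 in the thoracic pool, for 1.05 ± 0.08, with 0.19 at its other kept probe. Pdgfra, the receptor for PDGF-A and PDGF-C, measured 601 and 682 units in the arch and 454 and 420 in the thoracic pool. These do not overlap, and the ratio was 0.55 ± 0.15, while a second probe gave 0.01. The lowest were Pdgfrl, a secreted protein similar to PDGF receptors, with 1341 and 1423 units in the arch and 2190 and 2114 in the thoracic pool (-0.64 ± 0.07), and Btc, a ligand of Egfr and Erbb4, at -0.38 ± 0.05. Pdgfrl missed the rule on 1 array. Pdgfrl and Btc were called lower with the scanner software's ratios, at -0.66 ± 0.07 and -1.09 ± 0.09, where 0.599% of all genes were (1.32% in either direction).

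Of 43 measured intracellular transducers and feedback genes 0 were called. Their median was -0.02, with 16 above 0 and 27 below. Pik3cb, a lipid kinase, was the lowest at -0.22 ± 0.02. The highest were Egln3, an oxygen-sensing hydroxylase (0.26 ± 0.01), and the adaptor Frs3 (0.18 ± 0.04). Egln3 was called higher with the scanner software's ratios, at 0.65 ± 0.03, where 0.716% of all genes were. Among the inhibitors that FGF signalling induces to limit itself, Dusp4 was the highest at 0.15 ± 0.06 (0.43 ± 0.05 with the scanner software's ratios), followed by Il17rd at 0.10 ± 0.05 and Dusp6 at 0.07 ± 0.04. With median centring these were at 0.15, -0.04 and -0.08, and the other kept Dusp4 probe was at 0.05 with loess. With loess the brightest probes of the measured Spry and Spred genes lay between -0.06 and 0.01. The other kept Spry2 probe was at -0.10. The transcription factors Etv1, Etv4 and Etv5 lay between -0.02 and 0.01.

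**Figure D5:**
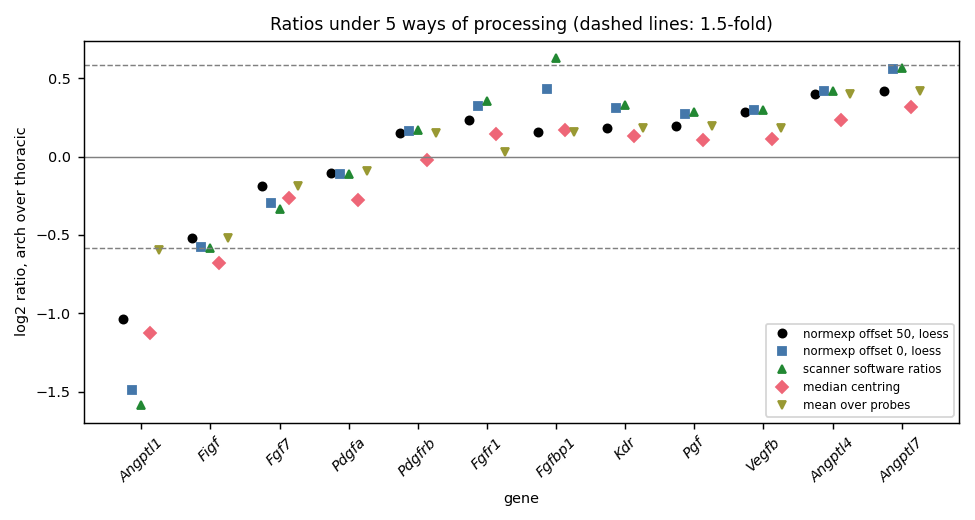
Log2 ratio of arch over thoracic aorta (y axis) of 12 members (x axis) under 5 ways of processing, given by symbol, with dashed lines at 1.5-fold. Angptl1 lies past 1.5-fold under all of them, from -0.60 as the mean over probes to -1.59 with the scanner software's ratios, while Pdgfrb changes sign with median centring.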

How the data were processed

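Scanner output came from Agilent Feature Extraction 9.1.1.1, as named in the submitters' processing notes. In the deposited files stand the mean intensity and local background of each spot per dye and, per the file headers, a log10 ratio of processed Cy5 over Cy3 signal. The series' value table, deposited by the authors, equalled that log10 ratio, with array 2's sign as needed for arch against thoracic aorta, for 99.9% of values per array (tolerance 1e-06, median 0 on each); its scale and direction come from this match and the labels' dyes. From the intensities, background was corrected by normexp (offset 50) and each array normalised by loess with control spots at weight 0 (limma 3.58.1, R 4.3.3). Outlier spots (20 and 4) and controls were left out, the sign of array 2 was flipped, and repeat spots were averaged. Levels are per channel after Aquantile normalisation. Of 41174 probes 30539 were kept (marked well above background for 1 same region, or both, on each array), for 21368 genes. Genes outside the members took current symbols from a RefSeq gene table (GRCm38.p6, names only): 23127 spots by accession and 10306 by name or synonym, while 8101 kept their name in the file. The 2 arrays are a technical dye swap of the same pools and count as 1 replicate, so there is no p-value; their number limits the precision.

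Named with levels are called genes, the 2 highest and 2 lowest of each family, receptors, the PDGF and VEGF ligands and genes whose probes differ by over 0.3 (log2); Fgf2, Fgf22, Angpt2 and Angpt4 were added after their values were seen, and other genes have the ratio alone. The members and all lists were chosen with earlier results of these data known. Alternatives were an offset of 0, the scanner software's ratios, the value table, median centring, other filters on dim probes, the mean over probes, each array alone and other folds. The steps were tested on simulated data. Dusp5, Plxnd1 and Ccl21a, named in the lists, were not matched by symbol and were left out. The values of 1 member and 1 transducer gene are not reported here, though both stand in the counts.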

Additional observations from a re-analysis of the deposited data

How the results depend on the processing

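Angptl1 was called lower under every setting run except a 2-fold rule, which called 0 members lower. Median centring called 2 members lower (Figf beside Angptl1), and array 1 alone also 2 (Fgfr1op was at -1.04 there and at -0.05 on array 2), so the single arrays gave 1 to 2. A 1.3-fold rule called 2 lower and 1 higher (Angptl7), where 0.524% and 0.627% of all genes were called. On single arrays 0.29% and 0.314% of all genes were lower. The median over all members was 0.060 with an offset of 0, 0.071 from the scanner's own ratios and from the value table, -0.018 with median centring, 0.024 without the filter on dim probes, 0.027 as the mean over probes and 0.0330 to 0.0334 on single arrays. The VEGF median was 0.206, 0.204, 0.204 and 0.063 with the first 4 of these settings (offset, scanner, value table, centring), 0.10 as the mean over probes and 0.137 to 0.158 on single arrays. The PDGF median was -0.110, -0.113, -0.113 and -0.209 in the same order, -0.069 as the mean over probes and -0.077 to -0.070 on single arrays. FGF ligands had 0.068 with an offset of 0 and 0.091 from the scanner's ratios and the value table. FGF receptors and binding proteins had -0.082 with median centring and -0.032 to 0.026 on single arrays, and the HGF and EGF families -0.083 with median centring. The sign matched that of the main setting for 39 of 51 members with median centring. Dim probes limit the ratios, since the offset draws them towards 0. No paired analysis was possible because each region is 1 pool and the arrays repeat the same pools.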

Other observations

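Some probes outside the rule carry older clone names but were matched to member genes by symbol tables. Of 2 probes named AI838057, a synonym of Met, 1 was well above background in both regions and measured 0.31 ± 0.00 (0.63 with the scanner software's ratios), beside 0.05 ± 0.02 at the probe named Met. The match rests on the name alone, and whether these probes lie in the Met transcript is not known from the files used here. A probe of Fgfbp3, a second FGF-binding protein, measured 0.02 ± 0.01, and a probe named Ang3, matched to Angpt4, -0.03 ± 0.01, beside 0.15 ± 0.01 at the probe named Angpt4.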
